A study of Mus musculus with 6 samples.

Results

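The comparison described here set BV2 cells given the higher of 2 adenine doses against BV2 cells given the lower dose. BV2 is an immortalised line of mouse microglia, so every group is the same line and stands for microglia only as far as that line does. The groups were taken from the sample titles alone: 2 arrays titled with the higher number, 2 with the lower number, and 2 of untreated control cells that were normalized and fitted alongside. Of the 6 arrays in the series, 4 therefore entered the comparison itself. The titles and the treatment protocol give the doses as 20 and 80 µM, whereas the sample characteristics give 80 and 250 µM. Both readings put the groups in the same order, so they are called lower dose and higher dose and no concentration is attached to a result. The exposure lasted 1 h according to the treatment protocol, and no other agent was named for any group. No label states if replicate arrays are separate cultures, so the errors and p-values measure the spread between these arrays, which may be technical.

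Adenine is a purine base that cells take up and convert to AMP through adenine phosphoribosyltransferase, the salvage enzyme encoded by Aprt. AMP feeds the adenine nucleotide pool, which AMP-activated protein kinase senses, and extracellular purines act on microglia through adenosine and P2 receptors. Microglia are the resident macrophages of the brain, and they are known for complement and cytokine genes, for interferon-stimulated genes, and for clearing debris and lipids.

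Labelled cDNA was read on single-colour mouse arrays of 26423 probes, whose median intensity as deposited lay between 125 and 170 units. Values are given below as quantile-normalized intensity, in arbitrary units, in the order replicate 1 and replicate 2. Their number, 2 per group, limits the precision of every value. The 2 higher-dose arrays resembled each other most: across the brighter probes, those over the median, log2 values correlated at r = 0.9894 between them, the 2 lower-dose arrays at 0.9813, and a higher-dose with a lower-dose array at 0.9287 to 0.9328. Probes at or above 65000 units, near the ceiling of a 16-bit scanner, numbered 39 and 31 on the higher-dose arrays and 18 and 19 on the lower-dose arrays. For the labelled cell type, the sum over 22 measured genes known from microglia and macrophages was 199510 to 201280 units on the control and lower-dose arrays and 253070 to 280250 on the higher-dose arrays. Levels of different probes cannot be set against each other, so the sums of other lists are compared between arrays only.

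The main question was which transcripts differ between the doses. A gene is said to have risen or fallen at the higher dose where its adjusted p was under 0.05 in a limma fit with Benjamini-Hochberg adjustment over all probes. At that threshold 3629 of 26423 probes differed (13.7%), 1792 higher (6.78%) and 1837 lower (6.95%) at the higher dose. The brightest probe stood for a gene, and of the 17742 genes named in this way 2704 differed (15.2%), 1374 rising (7.74%) and 1330 falling (7.5%). The size was at least 2-fold for 868 of the genes that rose and 732 of those that fell, and the median size among called genes was 1.07 on the log2 scale. In every called gene the higher-dose and lower-dose arrays did not overlap, but non-overlap by itself is common here, since it held for 61.9% of all named genes. The plot of all named genes shows these calls across the range of intensity.

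**Figure D1:**
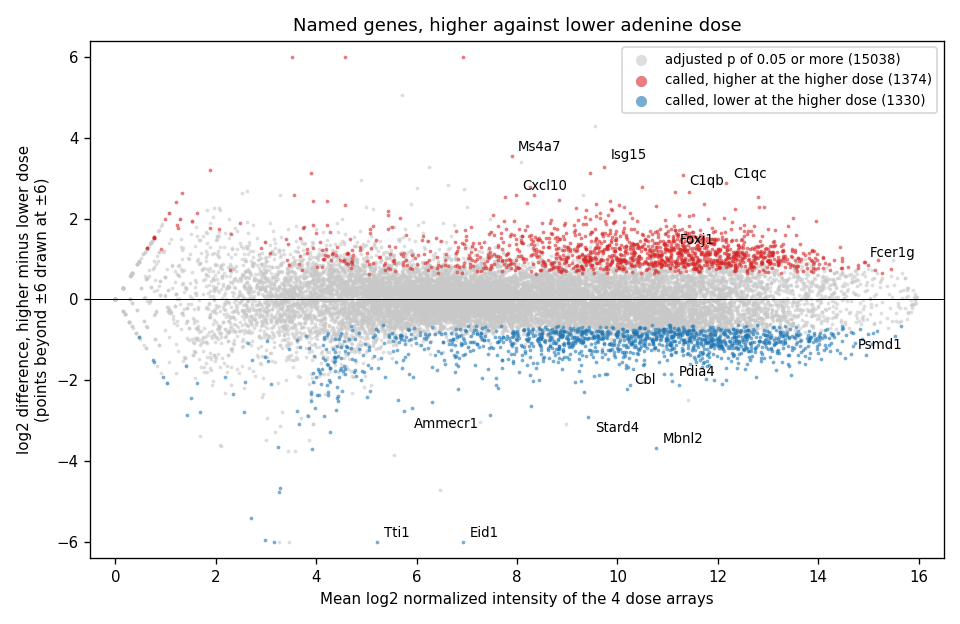
Each point is a named gene, placed by its mean log2 normalized intensity over the 4 dose arrays (horizontal axis) and by the log2 difference, higher minus lower dose (vertical axis). The 1374 genes called higher and 1330 called lower spread over both sides of 0 at nearly all intensities. Labelled points include Ms4a7, Isg15 and the C1q genes, which were higher, and Mbnl2, Stard4 and Ammecr1, which were lower, and points beyond 6 are drawn at 6.

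The differences were larger than those between replicates. Among the 10287 named genes above the median intensity, 13.8% differed at least 2-fold between the dose means, against 1.59% between the 2 lower-dose arrays and 0.262% between the 2 higher-dose arrays. The threshold itself was fragile, and the cause of that was not tested. The fit has 3 residual degrees of freedom, 1 of them from the control arrays. Without the controls the count of 3629 probes fell to 7 at 0.05 while 5030 stood under 0.1, and the 30 leading genes described next all had an adjusted p of 0.0515. Leaving out control replicate 1 or 2 gave 7 and 7 probes, lower-dose replicate 1 or 2 gave 9 and 9, and higher-dose replicate 1 or 2 gave 6 and 25. Under 0.1 stood 3931 and 3836 probes without a lower-dose array but 150 and 105 without a higher-dose array, with the sign kept for 30 of 30 leading genes in each of these fits. On values not normalized between arrays, 1127 probes were higher and 2965 lower, and the median over all probes moved from 0.00 to −0.25 on the log2 scale. Changes below are relative to the normalized median.

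The largest increases among genes above the median intensity were led by Ms4a7 and Isg15. Ms4a7, a member of the membrane-spanning MS4A family found in macrophages, read 76.8 and 62.3 units at the lower dose and 769 and 858 at the higher dose, an 11.7-fold increase (log2 3.55 ± 0.21, SE, n = 2 per group, adjusted p = 0.0143). Its relatives Ms4a6d and Ms4a6c rose by log2 2.28 and 1.75. Of the 19 MS4A genes measured 3 rose (15.8%, against 7.74% of all named genes) and 1, Ms4a4d, fell (5.26%, against 7.5%). Isg15, a ubiquitin-like modifier, read 302 and 246 units at the lower dose and 2749 and 2517 at the higher dose, a 9.66-fold increase (log2 3.27 ± 0.17, adjusted p = 0.013). In both genes the lower-dose arrays lay beside the controls, which read 71 and 55 units for Ms4a7 and 335 and 334 for Isg15, and the higher-dose arrays stood apart. Cbr2, a carbonyl reductase, rose 6.86-fold, Slpi, a secreted inhibitor of neutrophil proteases, 5.95-fold. Gmfg, a regulator of actin branching, rose 5.8-fold by its brightest probe, while its others stood at log2 1.90 (adjusted p = 0.018) and 0.31 (adjusted p = 0.586).

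The largest decreases above the median intensity, Eid1 set aside, included Mbnl2 and Stard4. Mbnl2, a regulator of alternative splicing, read 6050 and 6438 units at the lower dose and 500 and 478 at the higher dose, a 12.8-fold decrease (log2 −3.67 ± 0.16, adjusted p = 0.00928). A further probe of Mbnl2 did not follow, at log2 −0.37 (adjusted p = 0.336), so the decrease belongs to 1 of its 2 probes. Stard4, which moves cholesterol between membranes, went from 1951 and 1809 units to 260 and 241, a 7.51-fold decrease (log2 −2.91 ± 0.16, adjusted p = 0.013). Rcor1, a corepressor subunit, fell 6.16-fold, and Cbl, a ubiquitin ligase that turns off receptor signalling, fell from 2416 and 2631 units to 584 and 513. Ago2, the slicer of RNA interference, fell 4.31-fold by its brightest probe, while its others stood at log2 −0.63 and −0.46 and did not pass (adjusted p = 0.0865 and 0.181). Opa1, a GTPase of mitochondrial fusion, and Pdia4, a protein disulfide isomerase of the endoplasmic reticulum, fell 4.08-fold and 4.03-fold.

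**Figure D2:**
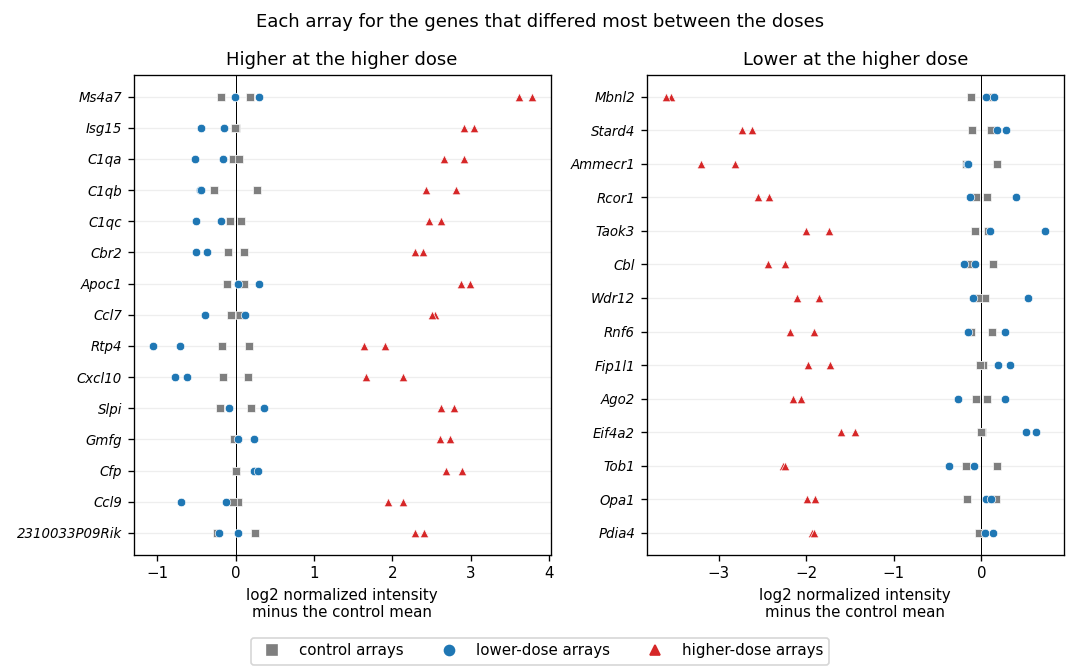
Points are single arrays, drawn as log2 normalized intensity minus the gene's control mean (horizontal axis), for the 15 genes with the largest increase (left) and 14 with the largest decrease (right) at the higher dose. Eid1, whose higher-dose arrays sit at the floor, is left out. The lower-dose points lie within 0.88 of the control on average for the genes that rose and 0.57 for those that fell, while the higher-dose points stand apart from both.

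These genes can be read against the controls as well, with the warning that both readings share the higher-dose arrays. For the 15 leading increases the higher dose stood log2 1.77 to 3.70 above the control mean and the lower dose between −0.88 and 0.26 of it. For 14 leading decreases, Eid1 set aside, the higher dose stood at −3.58 to −1.53 and the lower dose at −0.23 to 0.57. Eid1 itself read 4671 and 5383 units at the lower dose and −1.33 and 8.5 at the higher dose on its brightest probe, but its other probe read 85.7 and 51.2 against 85.5 and 98.2 units (adjusted p = 0.311), so no fold is given. Tti1, a partner of the large PI3-kinase-like kinases, showed the same switch on its only probe: 1190 and 1580 units at the lower dose and −5.08 and −5.75 at the higher dose (adjusted p = 0.000602), with controls at 1666 and 1415.

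Complement genes rose, with 6 of 15 passing and 0 in the other direction. Complement is a cascade of plasma proteins that tags targets for uptake, and C1q, built from the products of C1qa, C1qb and C1qc, is the recognition unit of its classical branch. C1qa read 267 and 209 units at the lower dose and 1894 and 2262 at the higher dose (8.76-fold, log2 3.13 ± 0.19, adjusted p = 0.0144). C1qb read 867 and 875 against 6403 and 8303 units (8.37-fold, log2 3.07 ± 0.25, adjusted p = 0.018). C1qc read 1510 and 1889 against 13180 and 11845 units (7.4-fold, log2 2.89 ± 0.18, adjusted p = 0.0144). All 3 chains thus rose by similar factors, and in each the lower-dose arrays lay below both control arrays, with log2 differences from control of −0.34, −0.44 and −0.35 at the lower dose.

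Outside the classical branch, Cfp, which encodes properdin, the stabiliser of the alternative pathway convertase, rose from 2920 and 3036 units to 18378 and 15992 (5.76-fold, log2 2.53 ± 0.15, adjusted p = 0.0144). The anaphylatoxin receptor gene C3ar1 rose 3.33-fold and C3, the central component, 1.6-fold (adjusted p = 0.0276 and 0.0464). Of 15 complement genes measured 6 rose (40.0%, against 7.74% of all named genes) and 0 fell, with a median log2 difference of 0.51 beside −0.00 over all named genes. The 5 complement regulators held no call, and their median was −0.40.

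Interferon-stimulated genes that passed moved in 1 direction. Genes of this kind carry the antiviral state that interferons induce through JAK kinases and STAT factors, and microglia also express them without infection. Of 44 measured, 15 rose (34.1%) and 0 fell, with a median of 0.51. The log2 difference was below the zero line in 8 of the 44, lowest in Oas1g at −0.62. Rtp4, an interferon-induced membrane protein, read 1246 and 975 units at the lower dose and 6313 and 7636 at the higher dose (6.3-fold, log2 2.65 ± 0.22, adjusted p = 0.018), and its other probe rose less, by log2 1.20 (adjusted p = 0.0211). Ifi27l2a read 2880 and 3681 against 16763 and 15089 units (4.88-fold, adjusted p = 0.018). Irf7, the transcription factor that amplifies the type I interferon response, read 1288 and 1554 against 5708 and 6268 units (4.23-fold, log2 2.08 ± 0.24, adjusted p = 0.018) and was the only regulator of 7 to pass. The higher-dose arrays stood above all other arrays in each of these genes, and the lower-dose arrays of Rtp4 and Irf7 below the controls.

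The smaller increases covered other arms of the same response. Ifit1, a sensor of foreign RNA caps, rose from 126 and 118 units to 374 and 322 (2.85-fold, adjusted p = 0.018). Usp18, which removes ISG15 from its targets, rose 2.7-fold, Oas3, which makes the second messenger of RNase L, 2.66-fold, and Bst2, which tethers budding viruses, 2.29-fold (adjusted p = 0.02, 0.0211 and 0.0203). Mx1, a GTPase that blocks viral replication, was dim, at 9.83 and 11.8 units against 29.3 and 40.7. The interferon receptor and signalling genes did not rise with their targets: of 12 measured 0 rose and 3 fell, namely Ifnar1, a chain of the type I receptor, from 529 and 380 units to 204 and 222, Tbk1 from 7360 and 6737 to 3713 and 3721, and Jak2 from 1990 and 1729 to 947 and 1037. A further probe of Ifnar1 stood at log2 0.57 (adjusted p = 0.127), the opposite sign.

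Many interferon-stimulated genes carry an interferon-stimulated response element near the start site, and the stretches below are shown because they hold its core in genes that rose together. The core was searched on both strands as GAAA, any 2 bases, and GAAA again, overlapping matches allowed, in windows from 250 bases before to 50 after the start, from RefSeq with build GRCm38.p6. It was found in 3.44% of 32851 windows, in 17 of the 33 interferon-stimulated genes with a window (51.5%), and in 6 of the 10 that rose and had one (60.0%). Among all genes above the median intensity the share was 3.7% of those that rose and 3.24% of those that fell, beside 3.61% of all of them. A match describes letters and shows no binding. Each line is written 5′ to 3′ on the gene's strand, with the core in capitals. The stretches of Isg15 (chr4:156200819-156200968, minus strand), Ifit1 (chr19:34640739-34640888, plus strand) and Bst2 (chr8:71537473-71537622, minus strand) run from 150 bases to 1 base before the start, and that of the chemokine gene Cxcl10 (chr5:92348990-92349139, minus strand) from 250 to 101 bases before it.
Isg15: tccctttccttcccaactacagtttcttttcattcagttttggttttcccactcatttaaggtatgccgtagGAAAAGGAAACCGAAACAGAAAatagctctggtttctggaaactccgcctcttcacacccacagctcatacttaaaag
Ifit1: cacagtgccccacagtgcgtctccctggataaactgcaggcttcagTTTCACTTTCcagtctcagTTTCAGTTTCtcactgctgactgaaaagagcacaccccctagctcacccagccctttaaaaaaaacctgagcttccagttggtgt
Bst2: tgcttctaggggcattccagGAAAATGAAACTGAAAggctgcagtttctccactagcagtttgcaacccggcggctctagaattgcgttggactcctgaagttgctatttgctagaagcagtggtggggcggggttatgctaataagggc
Cxcl10: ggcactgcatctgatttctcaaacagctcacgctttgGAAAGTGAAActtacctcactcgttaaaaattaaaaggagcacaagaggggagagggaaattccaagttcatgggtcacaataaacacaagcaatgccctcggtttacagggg

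Chemokines and cytokines also rose. Of 36 measured 12 rose (33.3%) and 0 fell, with a median log2 difference of 0.46. Ccl7, a monocyte attractant, read 1069 and 748 units at the lower dose and 5740 and 5589 at the higher dose (6.33-fold, log2 2.66 ± 0.21, adjusted p = 0.018). Cxcl10, the interferon-inducible attractant of T cells, read 108 and 97 against 525 and 728 units (6.03-fold, log2 2.59 ± 0.23, adjusted p = 0.018). Ccl9 rose 5.49-fold, and Ccl2, the main monocyte chemokine, from 6919 and 9529 units to 29080 and 33517 (3.84-fold, adjusted p = 0.018).

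The cytokine part of the list, without the chemokines, had 6 rises among 20 genes (median 0.46), and the chemokine part 6 among 16 (median 0.44). Il1b, the secreted pyrogen, read 506 and 490 units at the lower dose and 828 and 744 at the higher dose (1.58-fold, adjusted p = 0.0477), and Il1a rose 2.25-fold. Tnf read 852 and 509 against 997 and 1173 units and did not pass (log2 0.72, 95% confidence interval −0.04 to 1.47, adjusted p = 0.172). Il6 read 53.8 and 71 against 69.7 and 71.8 units (log2 0.19, interval −0.64 to 1.03), and Il10 74.8 and 194 against 194 and 121 units (log2 0.35, adjusted p = 0.704), and in both the dose arrays overlapped. Ptgs2, the inducible cyclooxygenase, read 685 and 478 against 290 and 322 units (adjusted p = 0.0578). Among 23 cytokine and chemokine receptors 1 rose, the GM-CSF receptor chain Csf2ra, from 1581 and 1205 units to 4108 and 3715, and 0 fell. Its ligand gene Csf2 was dim, at 13.7 and 15.2 against 27 and 35 units.

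Upstream innate signalling genes passed at about the rate of all genes. Of 41 measured genes of Toll-like receptor and NF-kB signalling 4 rose (9.76%) and 3 fell (7.32%). The shares of all named genes were 7.74% and 7.5%. The split turned to 1 and 6 on values not normalized between arrays. Nfkbia, the inhibitor that NF-kB itself induces, rose from 3629 and 2968 units to 6292 and 6044 (1.88-fold, adjusted p = 0.0351). Tlr2, a receptor for bacterial lipoproteins, fell from 2227 and 1804 units to 1194 and 1058 (1.78-fold lower, adjusted p = 0.0421). The kinase gene Mapk8 fell 2.67-fold and the adaptor gene Tab2 2.37-fold.

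In antigen presentation 5 of 23 genes rose (21.7%, against 7.74% of all named genes) and 1 fell (4.35%, against 7.5%). The genes that rose were Cd74, the invariant chain of MHC class II, at 5159 and 6455 against 20943 and 19411 units (3.49-fold, adjusted p = 0.018), and the immunoproteasome genes Psmb9, Psmb8 and Psmb10 with the activator Psme1, at 2.33-fold to 3.5-fold. Of 32 standard proteasome subunits 2 rose (6.25%) and 3 fell (9.38%), near the shares of all named genes, with a median of 0.30, and the split turned to 9 and 2 with arrays scaled to equal medians. Psmd1 went from 38620 and 43769 units to 17035 and 15248. The costimulatory ligand gene Cd86 fell 2.64-fold, from 8303 and 7992 units to 3269 and 2919.

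Genes linked to alternative activation and to lipid handling included several of the larger increases. Tgfb1, an anti-inflammatory growth factor, read 490 and 390 units at the lower dose and 1621 and 2118 at the higher dose (4.24-fold, log2 2.08 ± 0.22, adjusted p = 0.018), while its controls read 757 and 900, between the doses. Arg1, the arginase of alternatively activated macrophages, rose 3.11-fold from 539 and 447 units. Trem2, a lipid-sensing receptor of microglia, rose 2.32-fold (adjusted p = 0.044), whereas Mertk, a receptor for apoptotic cells, fell from 825 and 676 units to 351 and 358 (adjusted p = 0.0241). Of the 20 genes in this group 3 rose and 1 fell.

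Lipoprotein and lipid-handling genes numbered 18, of which 7 rose and 0 fell, with a median of 0.62. Apoc1 read 107 and 128 units at the lower dose and 768 and 827 at the higher dose (6.82-fold, log2 2.77 ± 0.18, adjusted p = 0.0144), and Apoc2, its neighbour in the apolipoprotein cluster, rose 5.05-fold. Apoe, the main apolipoprotein of the brain, went from 6170 and 7668 units to 21640 and 20218 (3.04-fold, adjusted p = 0.018). The fatty acid carrier gene Fabp4 rose 3.21-fold and the lysosomal cholesterol exporter gene Npc1 2.48-fold. Cholesterol synthesis divided instead: of 21 genes 4 rose, among them Srebf2 and Fdps, and 4 fell, among them Sqle, from 10451 and 10264 units to 4648 and 4414, and Idi1, from 10525 and 11032 to 3916 and 3737. On values not normalized between arrays that split became 0 and 5.

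Purine genes are the ones closest to the agent. Aprt, the enzyme that takes adenine to AMP, read 16546 and 12796 units at the lower dose and 27961 and 29190 at the higher dose (1.96-fold, log2 0.97 ± 0.19, adjusted p = 0.0343), with controls at 15364 and 13893. Its arrays did not overlap between the doses, and the lower-dose arrays lay on both sides of the controls. Hprt, which salvages hypoxanthine and guanine, read 28694 and 30620 against 37061 and 33002 units and did not pass (log2 0.24, interval −0.19 to 0.67, adjusted p = 0.395). Among 14 salvage and breakdown genes 4 rose (28.6%, against 7.74% of all named genes), namely Nt5c (2.76-fold), Ada (2.62-fold), Dck (2.19-fold) and Aprt. The single fall (7.14%, against 7.5%) was Ampd2, an AMP deaminase, at 1.7-fold lower.

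Of 16 genes for making purines and interconverting AMP, IMP and GMP 0 rose and 3 fell (18.8%, against 7.5% of all named genes). That split became 1 and 2 with arrays scaled to equal medians. Over all 35 purine metabolism genes 4 rose (11.4%, against 7.74%) and 5 fell (14.3%), with a median of −0.01. Ppat, the committed step of purine synthesis, fell from 3358 and 3237 units to 1420 and 1445 (2.3-fold lower, adjusted p = 0.018), and the controls lay between at 2546 and 2543. Adss, which starts the route from IMP to AMP, fell 2.58-fold from 8274 and 8176 units, and Ak3, a mitochondrial nucleotide kinase, 1.7-fold. The carrier Slc43a3, which transports purine bases, fell 2.13-fold and was the only one of 5 carriers to pass. Among 6 purine receptors the adenosine receptor gene Adora3 rose, from 42.7 and 36.7 units to 76.7 and 77.8, by 1 of its 3 probes. The genes Nos2, Adora2a, Adora2b, Gapdh and P2ry12 were not analysed here, since no probe used carries those names.

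Genes of AMP-activated protein kinase and mTOR signalling fell more often than they rose, 5 (17.9%) against 2 (7.14%) of 28. Of all named genes 7.5% fell and 7.74% rose. Eif4ebp1, the translation repressor under mTOR control, rose from 6066 and 6566 units to 12692 and 12430 (1.99-fold, adjusted p = 0.0226), while Rptor, the scaffold of mTOR complex 1, fell from 5018 and 5486 units to 2602 and 2363.

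Subunits of the respiratory chain rose broadly. Oxidative phosphorylation passes electrons through complexes I to IV and uses the resulting proton gradient in the ATP synthase, and its nuclear genes mostly encode small proteins. Of 71 measured subunits 42 rose (59.2%) and 2 fell, with a median log2 difference of 0.88. Complex I held 23 of these rises among 33 genes (median 1.09), complex IV 10 of 16, the ATP synthase 6 of 12, complex III 2 of 6 and complex II 1 of 4. Ndufa7 of complex I read 2160 and 2230 units at the lower dose and 6503 and 7658 at the higher dose (3.22-fold, log2 1.69 ± 0.16, adjusted p = 0.018).

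The 2 falls were in catalytic subunits. Ndufs1, the largest subunit of complex I, fell from 9456 and 10678 units to 3797 and 4504 (2.43-fold lower, adjusted p = 0.0224), and Sdha, the flavoprotein of complex II, from 12753 and 13301 to 8114 and 6439 (adjusted p = 0.0472). The median genomic span was 6.45 kb over the subunits that rose and 30.6 kb over these that fell. Enzymes of the citric acid cycle fell more often than they rose, 6 against 1 of 23, the rise being Sdhc. Cs, citrate synthase, went from 25200 and 27716 units to 14176 and 13237, and Pdha1, of pyruvate dehydrogenase, from 13563 and 12200 to 4120 and 5343. With arrays scaled to equal medians the citric acid cycle split was 2 and 2.

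Ribosomal proteins followed the respiratory chain. Of 38 measured cytosolic ribosomal proteins 20 rose (52.6%) and 0 fell, with a median of 0.86, and of 69 mitochondrial ones 32 rose (46.4%) and 1, Mrpl50, fell, with a median of 0.77. Rpl23 of the large subunit read 1905 and 2021 units at the lower dose and 5923 and 5303 at the higher dose (2.86-fold, adjusted p = 0.018), and Mrpl52 read 3512 and 3036 against 10990 and 10300 units (3.26-fold, adjusted p = 0.018). In mitochondrial import and assembly 18 of 46 genes rose and 2 fell. Many cytosolic ribosomal protein genes have processed pseudogenes of near-identical sequence, and 44 of the 82 listed were not named on the array.

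**Figure D3:**
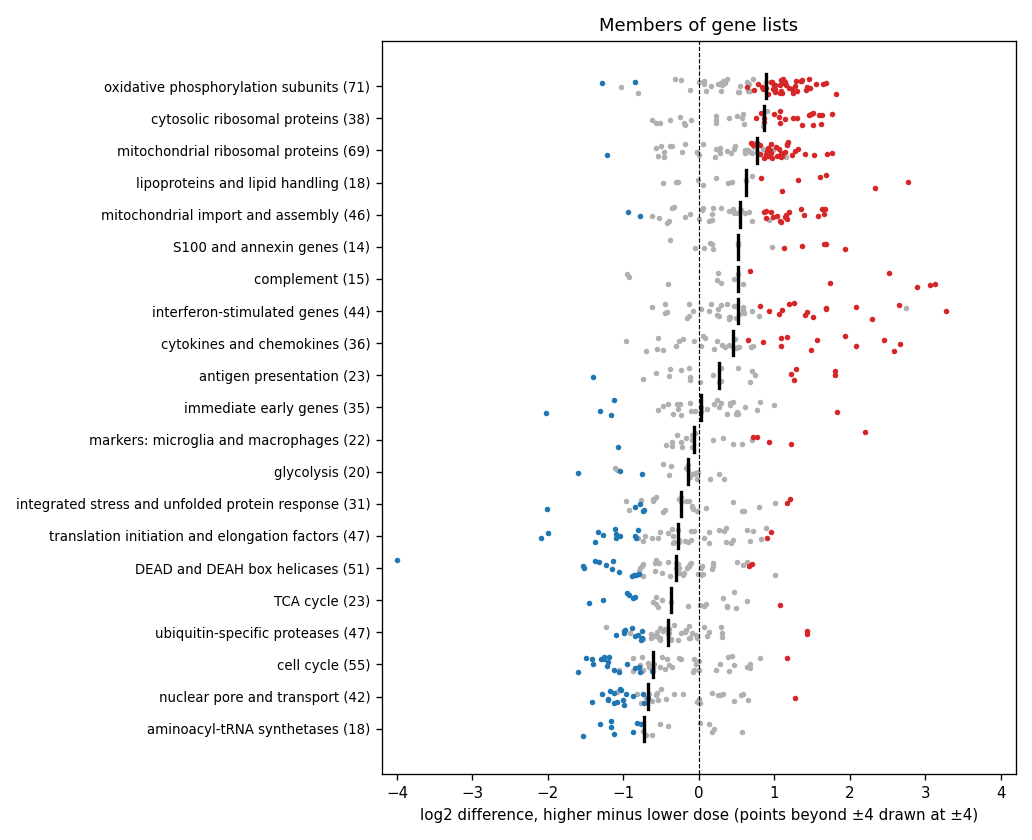
Points are the measured members of 21 gene lists, placed by log2 difference, higher minus lower dose (horizontal axis, with points beyond 4 drawn at 4), in red where they rose, blue where they fell and grey where they did not pass. Black bars mark the list medians, which run from 0.88 for oxidative phosphorylation subunits to −0.72 for aminoacyl-tRNA synthetases.

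Further groups serve translation outside the ribosome. Aminoacyl-tRNA synthetases, which load amino acids onto tRNAs, had 8 falls and 0 rises among 18 genes, with a median of −0.72. Gars went from 27961 and 23530 units to 9957 and 10715 (2.48-fold lower, adjusted p = 0.0187) and Mars1 fell 2.9-fold. Of 47 initiation and elongation factors 12 fell and 2 rose. Eif2s1, the alpha subunit of eIF2 whose phosphorylation slows initiation, fell from 752 and 634 units to 168 and 178 (3.99-fold lower, adjusted p = 0.018), and Eif2s2, the beta subunit, 2.52-fold. With arrays scaled to equal medians the factors split into 10 falls and 8 rises, with a median of −0.18 beside −0.27.

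RNA-processing genes divided by family. The small Sm and LSM proteins, which form the core of spliceosomal particles, had 10 rises and 0 falls among 18 genes (median 0.82). SR proteins, hnRNPs and SF3 or PRPF factors had 2 rises and 13 falls among 49 (median −0.46). Snrpa, a U1 particle protein, read 1146 and 1405 units at the lower dose and 3483 and 3021 at the higher dose (2.56-fold, adjusted p = 0.0263), with its other probes at log2 1.35 (adjusted p = 0.0212) and 0.37 (adjusted p = 0.221). Srsf3, an SR protein, read 2840 and 3346 against 1078 and 1040 units (2.91-fold lower, adjusted p = 0.018), and Prpf6, of the U4/U6.U5 particle, fell 2.74-fold. Both directions held on values not normalized between arrays, with 9 and 0 for the first group and 3 and 13 for the second.

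Nuclear pore and transport receptor genes had 17 falls among 42 genes (40.5%, against 7.5% of all named genes, median −0.67), such as Nup107, a scaffold nucleoporin, from 5519 and 6357 units to 2384 and 2073 (2.66-fold lower, adjusted p = 0.0186). The single rise, Xpo1, rests on a probe at or under 2.5 units on all 6 arrays and gives no measured level. DEAD and DEAH box helicases had 13 falls (25.5%) and 2 rises among 51, ubiquitin-specific proteases 10 (21.3%) and 2 among 47, and chromatin modifiers 14 (16.9%) and 1 among 83, including Smarca5, a chromatin remodeller, which fell 2.86-fold. Zinc finger genes named Zfp had 39 falls (12.1%) and 8 rises among 323. RNA polymerase II and Mediator genes had 14 rises (17.7%) and 9 falls (11.4%) among 79, which turned to 8 and 13 on values not normalized between arrays, with the small polymerase subunits Polr2f, Polr2h, Polr2j and Polr2k among the rises. Med14 and Med17 were among the falls by their brightest probes, while a further probe of each stood at log2 −0.25 and 0.22 and did not pass (adjusted p = 0.333 and 0.583).

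Genes of the cell division cycle fell. Of 55 measured 17 fell and 1 rose, with a median log2 difference of −0.61. Replication genes had 9 falls and 0 rises among 18 (median −0.77): Mcm6, of the replicative helicase, went from 19736 and 21292 units to 9122 and 8851 (2.28-fold lower, adjusted p = 0.0185), and Orc1, of the origin recognition complex, from 438 and 505 to 189 and 207. Cdk2, the kinase of S phase entry, fell from 4853 and 5881 units to 1892 and 1893 (2.82-fold lower, adjusted p = 0.018), and its partner genes Ccne2 and Ccna2 3.02-fold and 2.67-fold. A further probe of Ccne2 stood at log2 −0.51 and did not pass (adjusted p = 0.114). The single rise was Cdkn1a, the inhibitor of that kinase, from 3358 and 3541 units to 8144 and 7310 (2.24-fold, adjusted p = 0.0212).

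**Figure D4:**
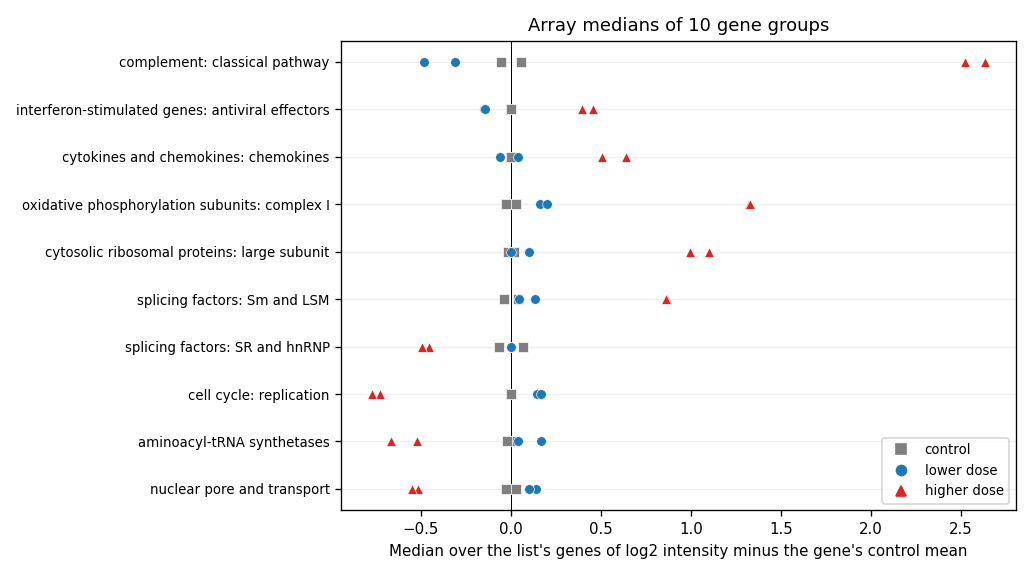
Points are arrays, placed by the median over each list's genes of log2 normalized intensity minus the gene's control mean (horizontal axis), for 10 gene groups. In each group the higher-dose arrays lie apart from the other 4, from 2.52 and 2.63 for the classical complement genes to −0.73 and −0.77 for replication genes.

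The stress lists leaned in different directions. Ddit3, the CHOP factor of the integrated stress response, rose from 1315 and 1448 units to 3261 and 3103 (2.3-fold, adjusted p = 0.0186), while the chaperone Hspa5 fell from 29667 and 24413 to 14797 and 15189 (adjusted p = 0.0389). Of 31 genes measured for both the integrated stress response and the unfolded protein response, 2 rose (6.45%) and 5 fell (16.1%), with a median of −0.24. The shares of all named genes were 7.74% and 7.5%. With arrays scaled to equal medians the split was 2 and 3. The transcription factor gene Atf4 read 56922 and 47760 against 48793 and 44385 units and did not pass (log2 −0.16, interval −0.59 to 0.26), and Trib3, one of its known targets, stood at log2 −0.09. In the oxidative stress response 4 of 19 rose (21.1%) and 3 fell (15.8%), with a median of 0.49. The glutathione synthesis gene Gclc fell 3.3-fold and the ferritin gene Ftl1 rose 3.03-fold.

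Immediate early genes, which respond to stimuli within the first hour, passed at about the rate of all genes. Of 35 measured 1 rose and 4 fell (14.3% in all, against 15.2% of all named genes). Fos read 11492 and 11787 units at the lower dose and 11204 and 12542 at the higher dose (log2 0.03, interval −0.41 to 0.46), and Jun 966 and 1384 against 1168 and 1187 units (log2 0.03, interval −0.52 to 0.57). Zfp36, which destabilises cytokine mRNAs, rose from 1295 and 1089 units to 3840 and 4626 (3.55-fold, adjusted p = 0.018), and Tob1, an adaptor of mRNA deadenylation, fell 4.09-fold.

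Smaller families gave single clear members. Rab GTPases, which direct vesicle traffic, had 7 rises (11.9%, against 7.74% of all named genes) and 0 falls among 59, led by Rab7b at 2544 and 2302 against 7043 and 8210 units (3.14-fold, adjusted p = 0.018). S100 and annexin genes, encoding calcium-binding proteins, had 5 rises and 0 falls among 14, among them S100a6 (3.83-fold) and S100a10 (2.58-fold). In glycolysis 3 of 20 fell and 0 rose, so its genes passed at about the rate of all named genes (15.2% in either direction). The falls numbered 2 with arrays scaled to equal medians, 1 with the replicate number as a block and 5 without normalization between arrays. Hk2, which traps glucose in the cell, went from 17631 and 19815 units to 6750 and 5643 (3.03-fold lower, adjusted p = 0.018). Hif1a, the oxygen-regulated factor, cannot be given a direction, because its brightest probe rose (log2 1.32, adjusted p = 0.0323) and another fell (log2 −0.91, adjusted p = 0.0268). Among the 422 called genes with over 1 probe, 10 had another probe called in the opposite direction, and in 118 every other probe was called in the same one.

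Foxj1, a transcription factor of motile cilia, was higher at each dose step. It read 92 and 72 units in the controls, 1453 and 1422 at the lower dose and 3806 and 3016 at the higher dose. Between the doses that is 2.36-fold (log2 1.24 ± 0.21, adjusted p = 0.0264), beside log2 4.14 for lower dose minus control and 5.38 for higher dose minus control, values that share arrays. None of the other 40 forkhead factors measured passed between the doses.

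In a small set of genes the lower dose lay further from the controls than the higher dose did. The rule required a called difference between the doses and an intensity above the median. It also required a control mean closer to the higher-dose mean than to the lower-dose mean. Of 1188 such called genes that were higher at the higher dose 38 belonged to the set, and of 1095 that were lower 32 did. Slfn2, of the Schlafen family in immune cells, read 2036 and 2328 units in the controls, 1276 and 1137 at the lower dose and 3037 and 3202 at the higher dose (2.59-fold between the doses, adjusted p = 0.018). Chst12, a sulfotransferase, read 2576 and 2314, then 1300 and 1416, then 3627 and 3170 units. In the other direction Ak4, an adenylate kinase of mitochondria, read 4750 and 5637, then 8354 and 7414, then 3799 and 3915 units, and Ercc6l2 1384 and 1935, then 2675 and 2501, then 1043 and 1208. In all 4 the controls lay between the doses on the brightest probe. On further probes of Ak4 and Ercc6l2 the higher dose lay further from the controls. Those of Ak4 read 2419 and 2101, then 2237 and 2992, then 1860 and 1599 units (adjusted p = 0.131), and 38.3 and 19.3, then 20 and 16.8, then 7.67 and 7.5 (adjusted p = 0.07). That of Ercc6l2 read 41.8 and 40.8, then 34.5 and 35.8, then 16.3 and 16.3 (adjusted p = 0.0194).

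Microglial genes did not move as a block. Of 22 measured 5 rose (22.7%, against 7.74% of all named genes) and 1 fell (4.55%, against 7.5%), with a median of −0.07. Aif1, which encodes the microglial marker Iba1, read 454 and 426 units at the lower dose and 2188 and 1874 at the higher dose (4.61-fold, log2 2.20 ± 0.16, adjusted p = 0.0171). Fcer1g, an adaptor of activating receptors, rose 1.9-fold and Itgam, the CD11b integrin, 1.64-fold. Cx3cr1 read 111 and 104 against 104 and 88.7 units (log2 −0.17, interval −0.66 to 0.32) and Tmem119 219 and 235 against 181 and 249 (log2 −0.10, interval −0.64 to 0.45), and neither passed. Both are defining markers of brain microglia, and Cx3cr1 was dim in this line.

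Few markers of other cell types passed. Over 8 lists with 64 measured genes 3 passed, whereas 15.2% of all named genes did. Cd3e of T cells and Prtn3 of neutrophil precursors rose, by log2 0.72 and 1.26, and Kdr of endothelium fell by 0.70. The summed level of the 10 lymphocyte markers was 1354 to 1410 units at the lower dose and 1854 to 1947 at the higher dose, that of the 7 neutrophil markers 1528 to 1686 and 2132 to 2369. The endothelial sum was 9666 to 9710 and 8750 to 9505. Of the 9 endothelial markers 6 lay above the median intensity. The same held for 6 of 9 markers of oligodendrocytes, 5 of 10 of lymphocytes, 4 of 10 of neurons and 3 of 7 of neutrophils. For astrocytes it was 1 of 8, for fibroblasts 0 of 7 and for erythroid cells 0 of 4. The defining markers Gfap, Cdh5, Col3a1 and Cd3d were dim, at most 84.4 units on the dose arrays, and were chosen after their values were seen. The part of other cell types in the results was not tested.

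The difference between the doses followed the length of the gene. Across the 10269 genes above the median intensity with a known span, the log2 difference had a Spearman correlation of −0.338 with genomic span, given as a description over genes that share the same 4 arrays, while differences between replicates gave 0.0447, −0.0166 and 0.0036. With these genes divided into 10 groups by span, in the shortest group, at a median of 2.18 kb, 27.7% of genes rose and 2.43% fell. In the eighth, at 49.9 kb, 5.26% rose and 18.4% fell. Several lists above differ in span from all named genes, whose median was 19.3 kb. The median span was 2.83 kb for the cytosolic ribosomal proteins that rose, 5.4 kb for the mitochondrial ones that rose and 50.6 kb for the nuclear pore genes that fell. For the cell cycle genes that fell it was 17.8 kb, near that of all named genes.

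**Figure D5:**
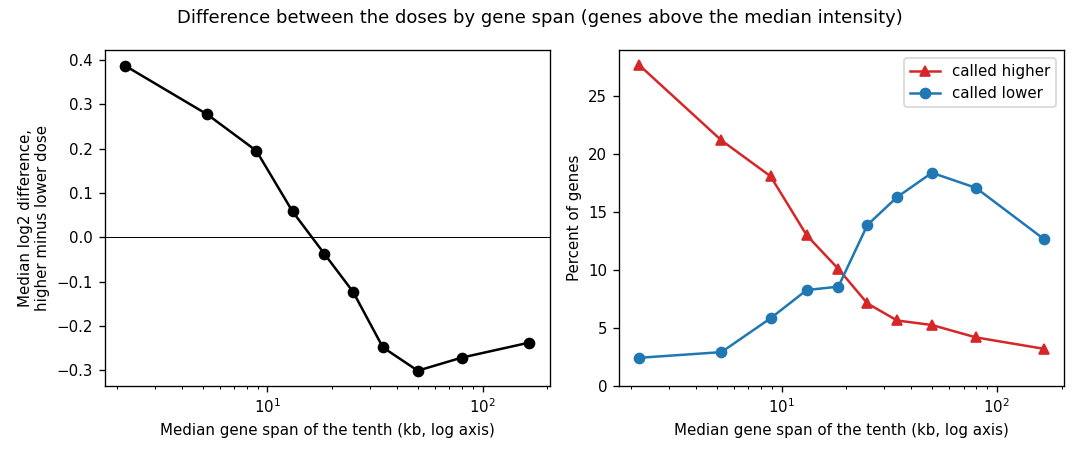
Genes above the median intensity were divided into 10 groups by genomic span, shown on a log axis in kb. The left panel plots the median log2 difference, higher minus lower dose, which runs from 0.39 in the shortest group to −0.30 in the eighth, and the right panel the percentage of genes called higher (red) and lower (blue), which are closest in the fifth, at 18.3 kb (10.1% and 8.57%).

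With each array's trend on span removed, 52 of the 57 list medians kept their sign. Oxidative phosphorylation went from 0.88 to 0.70, with 36 rises and 1 fall, cytosolic ribosomal proteins from 0.86 to 0.64, mitochondrial ribosomal proteins from 0.77 to 0.64, nuclear pore genes from −0.67 to −0.48 and cell cycle genes from −0.61 to −0.52. Interferon-stimulated genes stood at 0.57 with 16 rises and 0 falls, and complement genes at 0.40 with 6 and 0. This adjustment was chosen after the trend had been seen. RNA quality values were not used here, and their part in the trend was not tested.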

How the data were processed

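Per the labels' protocols, Cy5-labelled cDNA from BV2 cells was hybridised to Phalanx mouse OneArray chips. Deposited values are linear spot intensity after background subtraction, from −21 to 65489 units. The submitters' processing notes name RMA, but the deposited intensity values are linear with unequal medians, so the 6 arrays were quantile-normalized together, floored at 1 and put on the log2 scale. Limma 3.58.1 in R 4.3.3 fitted 1 mean per group (two-sided, 3 residual degrees of freedom, adjustment over 26423 probes, threshold 0.05), and was tested on simulated data. Symbols, present for 20377 probes, were updated through RefSeq (GRCm38.p6): 18213 matched by symbol, 2126 by synonym and 38 were kept. The members and the 57 lists were chosen with earlier results of these data known. Non-members caught by name patterns were removed after values were seen. Named were the 15 largest called differences per direction above the median intensity, the 3 members of each list with the smallest p, a set of inflammatory, purine and reference genes, the 5 per direction closer to control at the higher dose, and on-off probes. Other named genes were chosen after their values were seen. Alternatives varied normalization, filters, offset, block, prior, weights, threshold and arrays. Figures used Python 3.11.15 and matplotlib 3.10.9.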

Additional observations from a re-analysis of the deposited data

How the results depend on the processing

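The count of 3629 probes that differed between the doses (1792 higher, 1837 lower) depended on the settings. It was 6163 (2920 and 3243) among probes above the median intensity, where fewer probes were tested, 5662 with log2(value + 16), of which 2989 were lower, 5762 with a trended prior, of which 3093 were lower, and 1395 (753 and 642) with the replicate number as a block. On values not normalized between arrays it was 4092, split into 1127 higher and 2965 lower. With only the dose arrays fitted, or only those normalized and fitted, it was 7 (2 and 5) with fewer samples. At a threshold of 0.01 it was 7 (2 and 5) and at 0.1 it was 6425 (3037 and 3388). Leaving out each array gave 6 to 25 probes, 1 to 5 of them higher and 5 to 20 lower. Some settings had fewer probes or samples, and the cause of the changes in count was not tested. It was not settled if the numbers in the titles pair the arrays. The deviations of same-numbered arrays correlated at −0.226 between the doses, 0.0326 between control and lower dose and 0.313 between control and higher dose. With the lower-dose numbers crossed, an alternative chosen after seeing the data, 3481 probes differed. With the numbers as titled as a block, falls went from 17 to 4 in nuclear pore genes and 10 to 0 in ubiquitin-specific proteases. They went from 6 to 1 in the citric acid cycle and 3 to 0 in interferon receptor and signalling genes. Rises went from 42 to 19 in oxidative phosphorylation, 15 to 11 in interferon-stimulated genes and 6 to 5 in complement. Over all named genes 581 rose and 439 fell with that block. Of the 204 named genes, none changed sign past the threshold in any alternative, and 168 lost their call with only the dose arrays fitted. Values under 1, on 196 to 315 probes per array, and near the scanner ceiling limit what folds can show.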
